A study of Homo sapiens with 17 samples.

Results

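The PDGF, VEGF and endothelin genes PDGFA, PDGFB, PDGFC, VEGFA, VEGFB, VEGFC, EDN1, EDN2 and EDN3 encode secreted factors that act on blood vessels and stroma. They were picked by gene symbol, 9 genes of 26457 listed, after the levels of the same libraries had been seen, so they were chosen with these values known. The values of the 9 genes are therefore given as descriptions, with calls but with no p-value for any of them. The libraries came from SW480 cells, an established line of human colon carcinoma. Control cells, labelled shLacZ, expressed an inducible shRNA against LacZ. Mutp53-depleted cells, labelled shp53 and named here for the target of the shRNA, expressed an inducible shRNA against the mutant transcription factor mutp53. Both shRNAs were stably integrated and induced with doxycycline at 1 µg/ml. RNA was taken before TNF-α (0 h, untreated) and 16 h into treatment with 12.5 ng/ml of this cytokine (16 h, TNF-treated). Each of the 4 groups had 2 biological replicates, A and B, so that 8 libraries of poly(A) mRNA were compared. Each shRNA was represented by 1 cell line, and an effect of the shRNA cannot be told apart from a difference between those lines.

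PDGF chains pair into dimers that bind the receptor tyrosine kinases PDGFRA and PDGFRB on fibroblasts, pericytes and smooth muscle cells. VEGF proteins bind FLT1, KDR and FLT4 on blood and lymphatic endothelium, with the neuropilins NRP1 and NRP2 as co-receptors, and VEGFA is the ligand best known for its induction by low oxygen. Endothelins are short peptides cut from longer precursors by furin-like proteases and endothelin-converting enzymes, and they act through the G protein-coupled receptors EDNRA and EDNRB. Carcinoma cells are a known source of all 3 families of ligand, and stromal and endothelial cells are their usual targets.

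The libraries held between 6108488 and 13809578 reads on genes. Values are normalized reads, that is, exon reads of a gene brought to 1 common library total, and 1 read was worth between 0.670 and 1.51 normalized reads. A gene was tested where its mean was at least 2.5 normalized reads, and called where the adjusted p of limma (Benjamini-Hochberg) was below 0.05 with a difference of at least 2-fold on log2(normalized reads + 1). This added 1 brings the differences of weakly expressed genes closer to 0. Of the colon epithelial markers, 6 of 8 were tested, and the list summed to between 42724 and 70163 normalized reads per library. Most of that sum came from KRT8, KRT18 and KRT19. CDX1 had no read in any library, and KRT20, with at most 8.64 normalized reads, was not tested. Of the markers of other cell types, PECAM1 was at 2 reads or fewer in every library, and TEK, PTPRC, COL3A1 and DCN had no read in any of the 8. The summed endothelial markers lay between 6.06 and 7.26 normalized reads in untreated control cells, 5.69 and 6.77 at 16 h, and 18.4 and 29.5 in mutp53-depleted cells. VWF was called higher on depletion at both times, a call that at 0 h was lost without depleted 0 h replicate A (1.65) and with the median of the 51 tested genes around it removed (0.89). Among the other markers, limma called EPCAM lower on depletion at both times, CDH1 lower with TNF-α in both lines, CDX2 and CD14 lower with TNF-α in control cells, and ITGAM higher with TNF-α in both. The EPCAM call at 16 h was lost without control 16 h replicate A (−0.94), and that of CD14 without any 1 of 5 libraries, with DESeq2 (adjusted p = 0.152), with no filter (0.0751) and with a pseudocount of 0.1 (0.0578) or 5 (−0.995 on the log2 scale).

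Of the 9 ligand genes, 8 passed the filter on low values, and VEGFC had no read in any library. Depletion of mutp53 at 0 h gave 5 calls among these 8. PDGFC and EDN1 were called higher, beside 5.89% of all 14800 genes tested, and PDGFA, EDN2 and EDN3 were called lower, beside 9.55%. At 16 h, PDGFC was called higher, beside 5.03% of all genes, and PDGFA, EDN2 and EDN3 were called lower, beside 10.2%. TNF-α in control cells gave a higher call for EDN1, beside 2.97% of all genes, and lower calls for PDGFA and EDN3, beside 4.27%. In mutp53-depleted cells, EDN1 was called higher, beside 1.86%, and PDGFA lower, beside 4.5%. PDGFB, VEGFA and VEGFB were called in none of these comparisons under limma. At an unadjusted p under 0.05, limma counted 8 of the 8 ligands for depletion at 0 h, beside 8522 of all 14800 genes. For TNF-α in control cells it counted 6 of 8, beside 5413 of all genes. Since the choice of the genes used these same contrasts, nothing is read from their counts. The comparisons of depletion and of TNF-α share libraries, so their values stand side by side and are not independent.

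**Figure D1:**
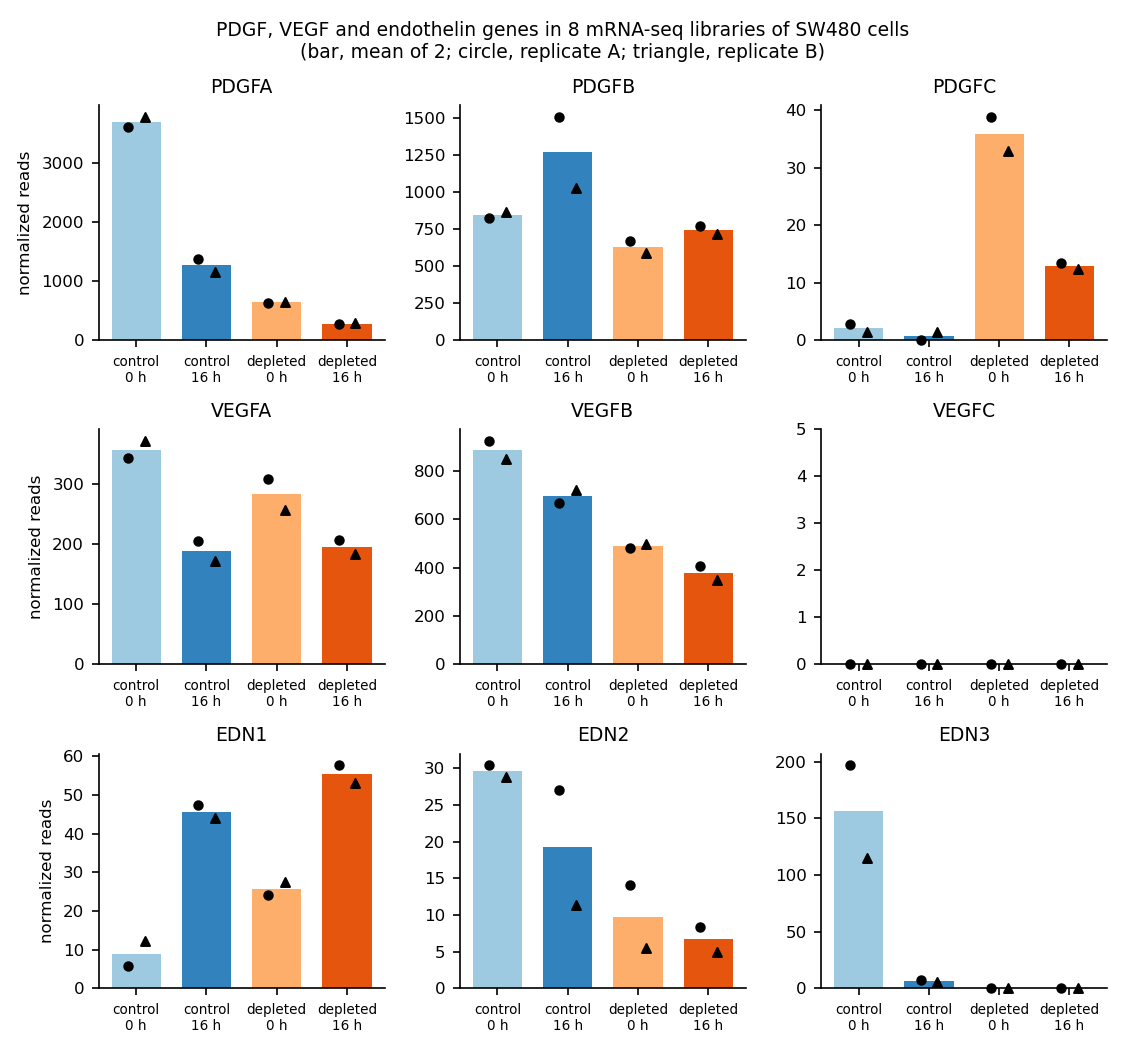
Normalized reads (y axes, each starting at 0) of the 9 ligand genes in the 4 groups (x axes), with bars for the mean of the 2 libraries of a group, circles for replicate A and triangles for replicate B. PDGFA and EDN3 were highest in untreated control cells, PDGFC was highest in untreated mutp53-depleted cells, EDN1 was lowest in untreated control cells, and VEGFC was at 0 in every library.

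PDGFA, which encodes the A chain of PDGF, lies on chromosome 7 (536897 to 559481, minus strand, in hg19, as for the genes that follow). It stood at 3604 and 3784 normalized reads in untreated control cells, 1374 and 1162 in TNF-treated control cells, 635 and 647 in untreated mutp53-depleted cells, and 270 and 294 in TNF-treated mutp53-depleted cells. The 4 groups did not overlap, with untreated control cells highest and TNF-treated depleted cells lowest. The mean in mutp53-depleted cells was 0.174 of that in control cells at 0 h (log2 difference −2.52 ± 0.09, SE) and 0.222 at 16 h (−2.16 ± 0.09). TNF-α left 0.343 of the level in control cells (−1.55 ± 0.09) and 0.440 in depleted cells (−1.18 ± 0.09), and the response to TNF-α was not called different between the lines (difference 0.36 ± 0.12), except without control 16 h replicate A (0.48). PDGFA lies near the end of its chromosome, and the 51 tested genes of its neighbourhood are PDGFA itself, 3 genes on the side of that end and 47 on the other. In depleted cells this neighbourhood was also lower, with a median log2 difference of −1.03 at 0 h and −1.02 at 16 h. With that median removed, PDGFA was still called lower, by −1.49 at 0 h and −1.14 at 16 h. What lowers the neighbourhood was not tested.

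PDGFB, the gene of the B chain, which can pair with the A chain, lies on chromosome 22 (39619364 to 39641060, minus strand). Its values were 827 and 867 normalized reads in untreated control cells, 1509 and 1029 in TNF-treated control cells, 671 and 592 in untreated mutp53-depleted cells, and 773 and 721 in TNF-treated mutp53-depleted cells. Both libraries of TNF-treated control cells lay above all others, but they differed from each other by 0.55 on the log2 scale, about as much as the difference that TNF-α made (0.56 ± 0.12). In depleted cells the TNF-α difference was 0.24 ± 0.12. Depletion differences were −0.42 ± 0.12 at 0 h and −0.74 ± 0.12 at 16 h, and the second reached −1.01 and a call without control 16 h replicate B. The TNF-α responses differed by −0.31 ± 0.17 between the lines, which was called only without that same library (−0.59).

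PDGFC encodes a chain that forms its own dimer and is freed by a protease such as PLAT. It lies on chromosome 4 (157682763 to 157892546, minus strand) and was nearly silent in control cells, with 2.90 and 1.51 normalized reads at 0 h and 0 and 1.42 at 16 h. Mutp53-depleted cells held 38.9 and 32.9 normalized reads at 0 h and 13.4 and 12.3 at 16 h. Every depleted library therefore lay above every control library. At 0 h, 82 reads in depleted cells stood against 5 in control cells, a depth-corrected ratio of 15.0 with an exact 95% interval of 6.19 to 47.6 that covers counting error only. At 16 h, 26 reads stood against 1, a ratio of 22.6 with an interval of 3.70 to 925. The fitted log2 differences were 3.55 ± 0.56 and 3.16 ± 0.56. Within depleted cells the level after TNF-α was 0.359 of that before it (log2 difference −1.41 ± 0.56), which limma did not call and edgeR's quasi-likelihood test did. Without either library of TNF-treated control cells, limma called it as well, at −1.41, and so it did with a pseudocount of 5, at −1.19.

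Per kilobase of exon, the summed PDGF level was between 1507 and 1582 normalized reads per kb in untreated control cells and between 299 and 305 in TNF-treated depleted cells. PDGFA made up 85.5% of this sum in both libraries of untreated control cells, 57.8% in TNF-treated control cells (55.2% to 60.5%), 56.2% in untreated depleted cells (54.4% to 58.0%) and 33.4% in TNF-treated depleted cells (31.7% to 35.1%). The per-kb ratio of PDGFA to PDGFB was 5.90 and 5.92 in untreated control cells. It was 1.23 and 1.53 in control cells after TNF-α, 1.28 and 1.48 in depleted cells before it, and 0.473 and 0.552 in depleted cells after it. The A chain thus led the B chain in 6 libraries and stood below it in both libraries of TNF-treated depleted cells. PDGFC reached 2.93% of the sum in untreated depleted cells and no more than 0.0689% in any control library.

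**Figure D2:**
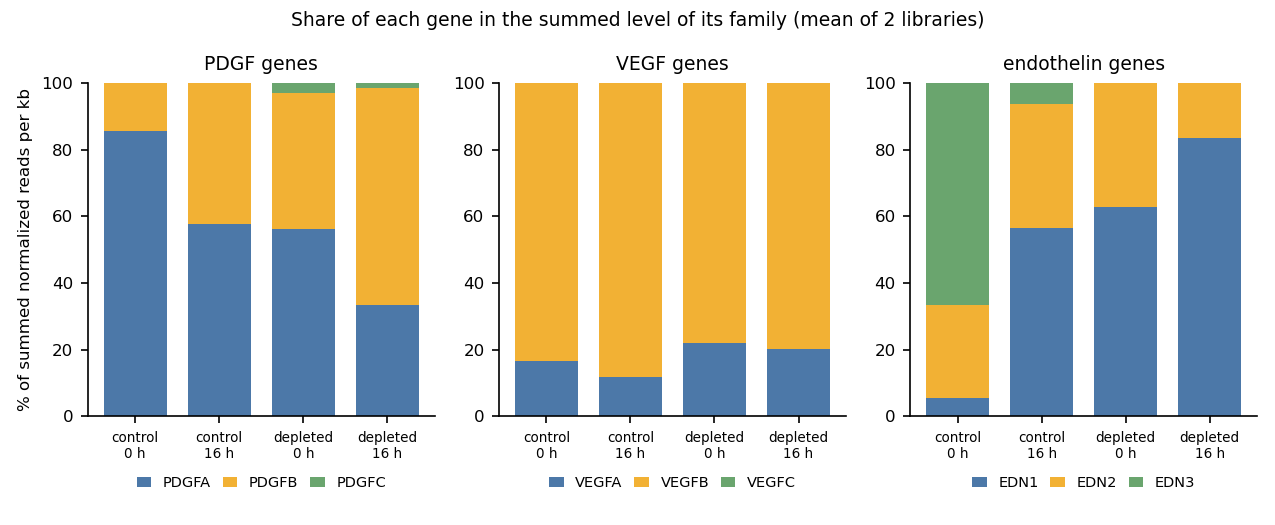
Share of each gene in the summed normalized reads per kb of its family (y axis, percent, mean of 2 libraries) by group (x axis), for the PDGF, VEGF and endothelin genes. PDGFA went from 85.5% to 33.4% of the PDGF sum, VEGFB held between 76.1% and 89.6% of the VEGF sum in single libraries, and EDN1 went from 5.39% to 83.5% of the endothelin sum.

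VEGFA, the main inducer of blood vessel growth, lies on chromosome 6 (43737946 to 43754223, plus strand). It stood at 342 and 371 normalized reads in untreated control cells, 204 and 171 in TNF-treated control cells, 308 and 256 in untreated mutp53-depleted cells, and 207 and 184 in TNF-treated mutp53-depleted cells. All 4 TNF-treated libraries lay below all 4 untreated ones. The TNF-α difference was −0.93 ± 0.13 in control cells and −0.52 ± 0.13 in depleted cells, both short of 2-fold. The first passed it, at −1.06, without control 16 h replicate A. Depletion made a difference of −0.34 ± 0.13 at 0 h and 0.06 ± 0.13 at 16 h, where the groups overlapped.

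VEGFB, a ligand of FLT1 linked to fatty acid handling and heart vessels rather than to vessel sprouting, lies on chromosome 11 (64002056 to 64006736, plus strand). It stood at 926 and 848 normalized reads in untreated control cells, 668 and 723 at 16 h, 481 and 499 in untreated mutp53-depleted cells, and 407 and 348 at 16 h. The 4 groups did not overlap. Depletion made a difference of −0.85 ± 0.09 at 0 h and −0.88 ± 0.09 at 16 h. TNF-α made a difference of −0.35 ± 0.09 in control cells and −0.38 ± 0.09 in depleted cells, and these responses differed by −0.03 ± 0.13.

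VEGFC, the lymphatic vessel factor on chromosome 4 (177604685 to 177713899, minus strand), had 0 reads in all 8 libraries. A count of 0 allows up to 3 reads, which are between 2.01 and 4.54 normalized reads per library, and no comparison was possible at this depth. Per kb, VEGFB exceeded VEGFA in every library, by 5.51 and 4.65 times in untreated control cells, 6.66 and 8.61 times in TNF-treated control cells, 3.18 and 3.96 times in untreated depleted cells, and 3.99 and 3.85 times in TNF-treated depleted cells. Every depleted library had a lower ratio than every control library. The summed VEGF level per kb was between 574 and 609 in untreated control cells and between 244 and 283 in TNF-treated depleted cells.

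EDN1, the gene of the vasoconstrictor endothelin-1, lies on chromosome 6 (12290529 to 12297427, plus strand). It stood at 5.81 and 12.1 normalized reads in untreated control cells, 47.4 and 44.1 in TNF-treated control cells, 24.1 and 27.4 in untreated mutp53-depleted cells, and 57.9 and 53.1 in TNF-treated mutp53-depleted cells. The 4 groups did not overlap, and untreated control cells were lowest. TNF-α made a difference of 2.30 ± 0.33 in control cells and 1.08 ± 0.33 in depleted cells, from 16 to 80 reads and from 56 to 112 reads. Depletion made a difference of 1.50 ± 0.33 at 0 h and of 0.27 ± 0.33 at 16 h. The call in depleted cells was lost when any 1 of the 4 depleted libraries was left out, with values between 0.99 and 1.17, and also with no filter on low values or with a pseudocount of 5 (0.98). The responses to TNF-α differed by −1.23 ± 0.46 between the lines, which was not called.

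EDN2, a second peptide that binds both endothelin receptors and is made in the intestine, lies on chromosome 1 (41944446 to 41950354, minus strand). It stood at 30.5 and 28.8 normalized reads in untreated control cells, 27.1 and 11.4 in TNF-treated control cells, 14.1 and 5.48 in untreated mutp53-depleted cells, and 8.38 and 4.94 in TNF-treated mutp53-depleted cells. Control and depleted libraries did not overlap at either time, but replicates differed by up to 1.22 on the log2 scale. Depletion made a difference of −1.63 ± 0.49 at 0 h and −1.32 ± 0.49 at 16 h. The call at 0 h was lost without control 0 h replicate A (−1.59) or depleted 0 h replicate B (−1.02), and that at 16 h without control 16 h replicate A (−0.73) or depleted 16 h replicate B (−0.99), with no filter, with a pseudocount of 5 (−0.99) and with DESeq2 (−1.53). TNF-α made differences of −0.72 ± 0.49 in control cells and −0.40 ± 0.49 in depleted cells, neither of them called.

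EDN3, which acts through EDNRB and is known for its part in neural crest and gut nerve development, lies on chromosome 20 (57875482 to 57901047, plus strand). It stood at 197 and 115 normalized reads in untreated and 7.73 and 5.69 in TNF-treated control cells, and all 4 libraries of mutp53-depleted cells had no read. It was at least 51.04-fold lower in untreated depleted cells and at least 2.16-fold lower at 16 h, computed against 3 reads per library. In control cells 348 reads at 0 h stood against 12 at 16 h, which made the level after TNF-α 24.7-fold lower (95% interval of the counts 13.97 to 48.31). No response could be measured in depleted cells, where both times were at 0. EDN3 was the 1 ligand gene called for a different TNF-α response between the lines, where 0.655% of all genes were called higher and 2.21% lower. That difference, 4.31 ± 0.79, was the fall in control cells set against 2 groups at 0, and it was not called by edgeR or DESeq2 on the recovered reads, with a pseudocount of 0.1, or without control 0 h replicate A (3.93).

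EDN1 and EDN2, which were called in opposite directions on depletion at 0 h, are shown with the 250 bases before the start of their transcript (RefSeq, GRCh38.p14, 5′ to 3′ on the strand of the gene), which overlap no gene in GENCODE v44. The window of EDN1 is chr6:12290111-12290360 on the plus strand and that of EDN2 is chr1:41484684-41484933 on the minus strand. Other EDN1 windows, at which no GENCODE v44 transcript starts, are not shown. The one at chr6:12287769-12288018 held the hypoxia response core and no TATA box. Capitals mark matches on either strand to a TATA box (TATAAA), to the hypoxia response core (ACGTG or GCGTG), to AP-1 (TGANTCA) or to the NF-kB consensus.
EDN1: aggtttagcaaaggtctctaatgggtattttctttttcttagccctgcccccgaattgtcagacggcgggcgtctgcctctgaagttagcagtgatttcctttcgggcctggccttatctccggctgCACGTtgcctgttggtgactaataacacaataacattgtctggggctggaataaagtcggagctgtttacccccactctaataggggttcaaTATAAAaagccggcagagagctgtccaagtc
EDN2: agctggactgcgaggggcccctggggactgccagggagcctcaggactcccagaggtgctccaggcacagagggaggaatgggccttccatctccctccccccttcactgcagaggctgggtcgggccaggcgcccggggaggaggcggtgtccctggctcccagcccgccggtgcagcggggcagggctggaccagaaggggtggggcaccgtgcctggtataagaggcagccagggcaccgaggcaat

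The EDN1 window had a TATA box whose first base lay 31 bases before the start, and 1 hypoxia core, read on the opposite strand, 123 bases before it, with no overlap between them. The EDN2 window had no exact match to any of the 4 motifs. It reads tataag about as far before the start as the TATA box of EDN1, which differs from TATAAA in the last base only. Such near matches were not searched, so the windows are not told apart by a TATA-like sequence. Of all 35116 promoters in the table, 10.7% held the TATA box, 43.2% the hypoxia core, 6.57% AP-1 and 9.96% the NF-kB consensus within the same length. The G and C content was 49.2% for EDN1 and 70.8% for EDN2, beside a median of 58% over all promoters.

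Per kb, the endothelin genes changed places. EDN3 made up 66.5% of their sum in untreated control cells (59.9% and 73.1% in the 2 libraries) and EDN1 5.39% (2.74% and 8.04%). After TNF-α, EDN1 took 56.6% (47.9% to 65.2%) and EDN3 6.37% (6.14% to 6.60%). In depleted cells EDN1 took 62.7% at 0 h (50.5% to 74.9%) and 83.5% at 16 h (80.5% to 86.5%), and EDN2 held the rest. The summed level per kb was between 72.1 and 101.3 in untreated control cells, 32.4 and 47.3 in control cells after TNF-α, 17.5 and 22.8 in untreated depleted cells, and 29.4 and 34.4 in TNF-treated depleted cells, so the endothelin mRNA of untreated control cells, mostly EDN3, was the highest of the 4 groups.

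Ordered per kb, PDGFA led in untreated control cells, with 1288 to 1353 normalized reads per kb, followed by VEGFB (472 to 516), PDGFB (218 to 229), VEGFA (93.6 to 101.7), EDN3 (43.2 to 74.1), EDN2 (23.1 to 24.5), EDN1 (2.78 to 5.80) and PDGFC (0.503 to 0.967), and no neighbours in this order overlapped. In TNF-treated control cells, PDGFA (415 to 491) still led VEGFB (372 to 402), but VEGFB and PDGFB overlapped, as did EDN1 and EDN2. In untreated depleted cells, VEGFB led (268 to 278), ahead of PDGFA (227 to 231). PDGFC overlapped both EDN1 and EDN2, which did not overlap each other. In TNF-treated depleted cells, VEGFB (194 to 226) and PDGFB (190 to 204) overlapped at the top, and PDGFA followed at 96.5 to 105.

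**Figure D3:**
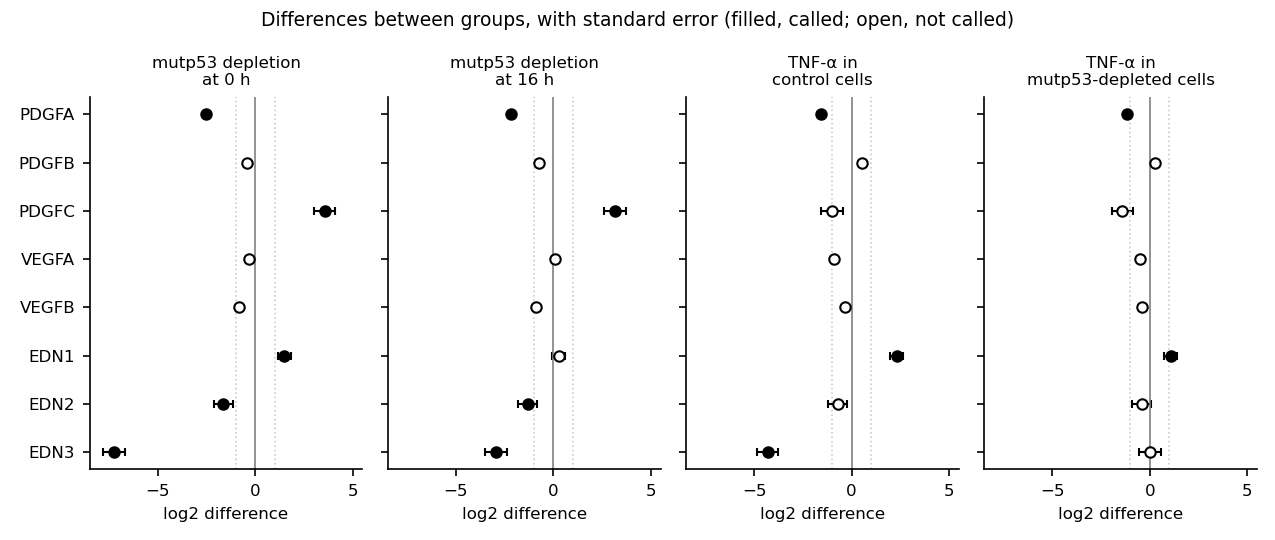
Log2 differences (x axes, limma on log2 of normalized reads plus 1) of the 8 tested ligand genes in the comparisons of depletion at 0 h and 16 h and of TNF-α in control and in depleted cells, with standard errors as bars and dotted lines at 2-fold. Filled circles were called and open circles were not. EDN3 lay at −7.25, −2.93 and −4.31 in the first 3 comparisons and at 0.00 in depleted cells, where no library had a read.

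The median log2 difference of the 8 tested ligands was −0.64 for depletion at 0 h, −0.81 for depletion at 16 h, −0.82 for TNF-α in control cells and −0.39 for TNF-α in depleted cells, beside medians over all tested genes of 0.03, −0.01, −0.05 and −0.06. A neighbourhood shift of the size seen at PDGFA was not seen at the other 7 tested ligands, whose 51-gene medians for depletion lay between −0.18 and 0.07 at 0 h and between −0.20 and 0.11 at 16 h.

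**Figure D4:**
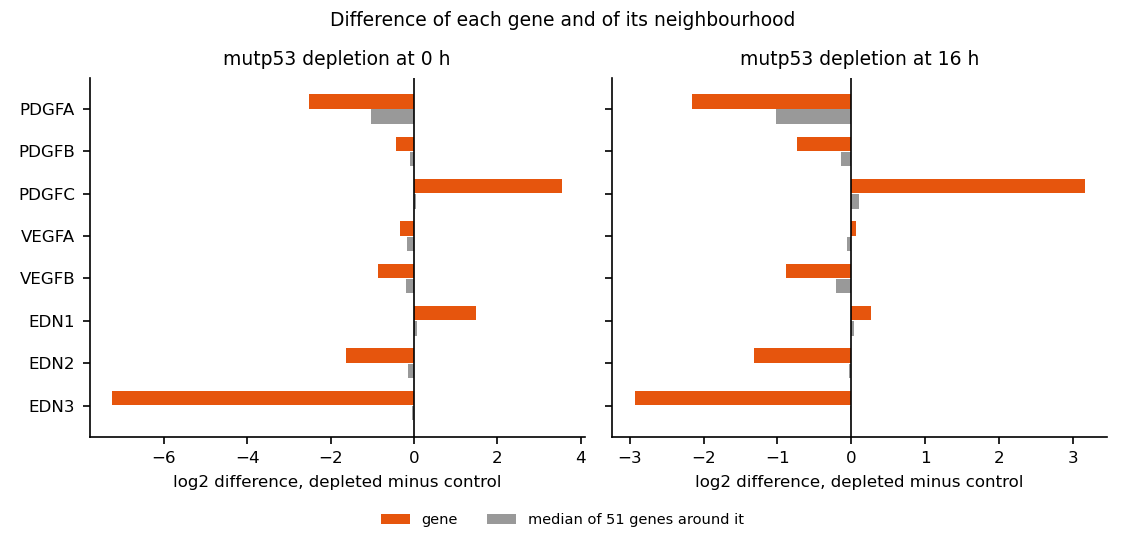
Log2 difference between mutp53-depleted and control cells (x axes) at 0 h and at 16 h for the 8 tested ligand genes (orange bars) and the median of 51 tested genes along its chromosome (grey bars), centred on the gene except for PDGFA, which has 3 of them on 1 side and 47 on the other. PDGFA stood out by its neighbourhood, at −1.03 and −1.02, while the other neighbourhoods lay between −0.20 and 0.11.

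Across the 8 libraries, the genes whose centred log2 profile was most like that of PDGFA were HES6 and SYTL1, at a root mean square distance of 0.149 for each. Nearest to PDGFB were IL15RA (0.0895) and TMEM200B (0.0985). PIP5K1B (0.201) was nearest to PDGFC. For VEGFA they were KIAA0226L (0.0933) and CROT (0.0950), and for VEGFB MAPK13 (0.0611) and RPA3 (0.0739). KRT7 (0.235) and ATP2B4 (0.257) came closest to EDN1, CAPS (0.275) and LRRC24 (0.287) to EDN2, and TENM2 (0.669) and CA9 (0.823) to EDN3.

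Other ligands of the same families, from a list of the pathway, were scarce. PGF, placental growth factor and a ligand of FLT1, lay between 7.11 and 19.4 normalized reads over the 8 libraries and was called in no comparison, with adjusted p between 0.198 and 0.960 in limma. PDGFD, a PDGF chain that binds PDGFRB, had no read, and FIGF, the gene of the lymphatic factor VEGF-D, had at most 1.42 normalized reads.

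Of 9 receptors and co-receptors, 4 were tested. PDGFRB and NRP2 were called higher on depletion at 0 h, beside 5.89% of all genes. With TNF-α, NRP1 was called higher in control cells, beside 2.97%, and in depleted cells, beside 1.86%. PDGFRB was called lower with TNF-α in depleted cells, beside 4.5%. KDR and EDNRB had no read in any library, PDGFRA had at most 2.68 normalized reads, FLT4 2.18 and EDNRA 1.37. FLT1 was at 0 in untreated control cells, 2.90 and 1.42 in TNF-treated control cells, 2.01 and 0 in untreated depleted cells and 12.6 and 2.47 in TNF-treated depleted cells, and was called in no comparison by limma, while edgeR called it for TNF-α in depleted cells. The signalling receptors of these ligands were thus at or near 0 in most libraries, apart from PDGFRB.

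PDGFRB stood at 4.35 and 6.06 normalized reads in untreated control cells, 4.83 and 4.27 in TNF-treated control cells, 69.7 and 69.9 in untreated mutp53-depleted cells, and 7.55 and 8.64 in TNF-treated mutp53-depleted cells. It rose on depletion at 0 h (log2 difference 3.53 ± 0.41, limma adjusted p = 9.95e-07) and fell with TNF-α in depleted cells (−2.96 ± 0.41, adjusted p = 2.63e-05). The difference at 16 h was 0.71 ± 0.41 (adjusted p = 0.159). The TNF-α response differed between the lines by −2.81 ± 0.58 (adjusted p = 0.00992), a call lost without either library of untreated depleted cells (adjusted p = 0.0731 without A and 0.0745 without B). Of the fibroblast and pericyte markers, COL3A1 and DCN had no read. The list summed to between 60.2 and 60.6 normalized reads in untreated control cells and between 113 and 133 in untreated depleted cells. COL1A1 carried most of this difference, with means of 33.4 and 97.0. It was called higher, though not with the neighbourhood median removed (0.92). In the same groups RGS5 had means of 22.2 and 23.4 and CSPG4 of 4.845 and 2.025, and neither was called. The part of these markers in the PDGFRB level was not tested. In bulk RNA, a change in the number of cells of a type and a change in RNA per cell cannot be told apart.

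NRP1, the co-receptor of VEGFA and of semaphorins, stood at 885 and 857 normalized reads in untreated and 2466 and 2417 in TNF-treated control cells, and at 899 and 890 in untreated and 2274 and 2181 in TNF-treated depleted cells. It rose with TNF-α in control cells (1.49 ± 0.07, limma adjusted p = 1.29e-11) and in depleted cells (1.32 ± 0.07, adjusted p = 1.08e-10), and depletion made a difference of 0.04 ± 0.07 at 0 h and −0.13 ± 0.07 at 16 h. NRP2, the co-receptor of VEGFC, stood at 511 and 707 in untreated control cells, 618 and 673 at 16 h, 1310 and 1337 in untreated depleted cells and 770 and 701 at 16 h. It rose on depletion at 0 h (1.14 ± 0.11, adjusted p = 1.31e-07), a call lost without control 0 h replicate A (0.90) and with the neighbourhood median removed (0.96). The TNF-α response of NRP2 differed between the lines by −0.95 ± 0.16 (adjusted p = 0.00184). NRP1 thus followed TNF-α in both lines, while NRP2 was highest in untreated depleted cells.

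Of 8 genes that process these ligands, 6 were tested. ECE1 and PLAT were called higher with TNF-α in control cells, beside 2.97% of all genes. PLAT was also called higher on depletion at 0 h, beside 5.89%, and with TNF-α in depleted cells, beside 1.86%. ECE1, which cuts big endothelin into the active peptide, stood at 1982 and 2006 normalized reads in untreated control cells, 6769 and 5345 at 16 h, 1785 and 1560 in untreated depleted cells and 3377 and 3162 at 16 h. It rose with TNF-α in control cells (1.59 ± 0.09, limma adjusted p = 3.11e-10), and its difference in depleted cells was 0.97 ± 0.09 (adjusted p = 3.19e-07), just short of 2-fold. Without depleted 0 h replicate A or depleted 16 h replicate B it passed 2-fold and was called, at 1.07 and 1.02, and with all libraries it was called by edgeR (1.02), by DESeq2 (1.03) and with median-ratio scaling (1.035). The responses differed by −0.62 ± 0.13 (adjusted p = 0.0112), and that call was lost without control 0 h replicate A (0.0538), depleted 0 h replicate A (0.104) or depleted 16 h replicate B (0.0600).

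PLAT, the tissue plasminogen activator that can free PDGFC, stood at 26.9 and 24.2 normalized reads in untreated control cells, 392 and 198 at 16 h, 109 and 98.7 in untreated depleted cells and 287 and 247 at 16 h. It rose with TNF-α by 3.40 ± 0.23 in control cells (limma adjusted p = 2.02e-09) and by 1.35 ± 0.23 in depleted cells (adjusted p = 0.000206), and on depletion at 0 h by 1.98 ± 0.23 (adjusted p = 8.3e-07). Its TNF-α response was smaller in depleted cells by −2.05 ± 0.32 (adjusted p = 0.00106). Like EDN1, it was lowest in untreated control cells. At depletion at 16 h limma called 0 of these 6 processing genes because none reached 2-fold, although 5 of them had an adjusted p of 0.000490 or less, and edgeR and DESeq2 made 0 calls as well. The same 5 had an unadjusted p under 0.05, beside 8366 of all 14800 genes. FURIN was at −0.87 ± 0.09, ECE1 at −0.88 ± 0.09 and ECE2 at 0.89 ± 0.12, and without control 16 h replicate B the calls were 2, ECE1 (−1.05) and FURIN (−1.005).

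**Figure D5:**
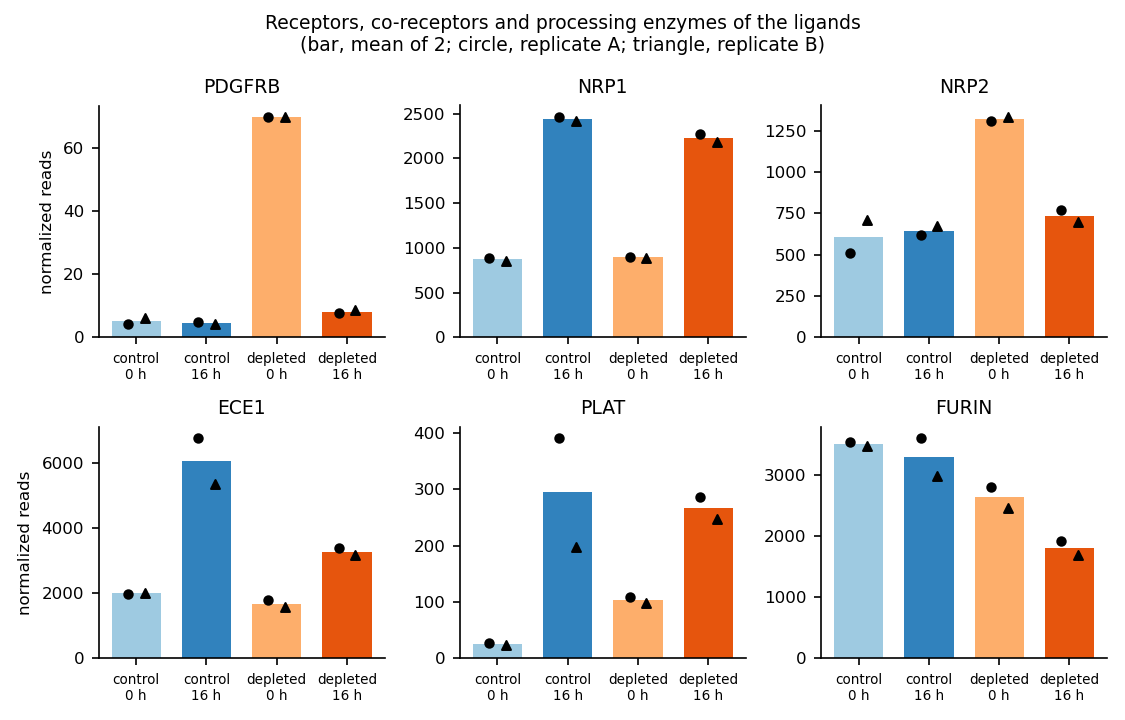
Normalized reads (y axes, each starting at 0) of PDGFRB, NRP1, NRP2, ECE1, PLAT and the protease gene FURIN in the 4 groups (x axes), with bars for the mean of 2 libraries, circles for replicate A and triangles for replicate B. PDGFRB stood at 69.7 and 69.9 in untreated depleted cells and at 8.64 or below in the other 6 libraries, and NRP1 was at 2181 or above in the 4 TNF-treated libraries.

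VEGFA is a textbook target of the hypoxia response, whose genes were listed for comparison. Of 16 listed, 15 were tested, and EPAS1, EGLN3 and CA9 fell on depletion at both times. Of all genes tested, 9.55% were called lower on depletion at 0 h and 10.2% at 16 h. TNF-α gave lower calls to 4.27% of all genes in control cells and 4.5% in depleted cells, and higher calls to 1.86% in depleted cells. CA9, a carbonic anhydrase induced by low oxygen, stood at 55.2 and 65.1 normalized reads in untreated control cells, 10.6 and 14.2 at 16 h and at 0 in all 4 depleted libraries, so that CA9, like EDN3, had no read after depletion. It fell with TNF-α in control cells (−2.20 ± 0.57, limma adjusted p = 0.00717), a call lost without control 0 h replicate A (adjusted p = 0.0533), control 0 h replicate B (0.0965) or control 16 h replicate A (0.0535), and with a pseudocount of 0.1 (0.200). EPAS1, the transcription factor HIF-2α, fell on depletion by 1.58 ± 0.07 at 0 h (adjusted p = 3.96e-12) and 1.49 ± 0.07 at 16 h (adjusted p = 7.69e-12). EGLN3, an oxygen-sensing hydroxylase, fell on depletion by 1.96 ± 0.17 at 0 h (adjusted p = 2.6e-08) and with TNF-α in control cells by 1.20 ± 0.17 (adjusted p = 2.8e-05). ANKRD37 fell with TNF-α in control cells by 2.20 ± 0.22 (adjusted p = 5.08e-07) and in depleted cells by 1.77 ± 0.22 (adjusted p = 9.12e-06), the direction that VEGFA took without a call. NDRG1 was called in the other direction, higher with TNF-α in depleted cells (1.15 ± 0.07, adjusted p = 1.2e-09). HIF1A and PGK1 were at 0.50 ± 0.08 and 0.44 ± 0.07 for depletion at 0 h, short of 2-fold (adjusted p = 2.75e-05 and 2.61e-05). KDM3A and ARNT were also higher, at 0.33 ± 0.09 and 0.31 ± 0.11. ADM and SLC2A1 went the other way short of 2-fold, at −0.92 ± 0.12 and −0.74 ± 0.11 (limma adjusted p = 2.97e-06 and 1.77e-05). ANKRD37 and P4HA1 did so too, at −0.55 ± 0.22 and −0.51 ± 0.10 (adjusted p = 0.0475 and 0.000374). ADM was called with the neighbourhood median removed (−1.02) and without depleted 0 h replicate B. The median of the 15 genes was −0.29 for depletion at 0 h, −0.02 for depletion at 16 h, −0.26 for TNF-α in control cells and −0.05 for TNF-α in depleted cells.

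Of 12 other angiogenic factors, 7 were tested, and FGF2, HGF, ANGPT1 and THBS2 had no read. ESM1, a proteoglycan of activated endothelium, stood at 6.53 and 10.6 normalized reads in untreated control cells, 119 and 115 at 16 h, 195 and 169 in untreated depleted cells and 1306 and 1481 at 16 h. It rose with TNF-α by 3.66 ± 0.18 in control cells (limma adjusted p = 4.35e-11) and by 2.93 ± 0.18 in depleted cells (adjusted p = 1.4e-09), and on depletion by 4.29 ± 0.18 at 0 h (adjusted p = 3.76e-12) and 3.56 ± 0.18 at 16 h (adjusted p = 3.08e-11). APLN, a peptide ligand that promotes vessel growth, fell on depletion by 2.08 ± 0.17 at 0 h (adjusted p = 8.43e-09). It also fell on depletion at 16 h by 1.14 ± 0.17 (adjusted p = 1.39e-05) and with TNF-α in control cells by 1.59 ± 0.17 (adjusted p = 7.17e-07). COL18A1, the source of endostatin, fell on depletion by 2.08 ± 0.12 at 0 h (adjusted p = 1.59e-10) and by 2.06 ± 0.12 at 16 h (adjusted p = 1.61e-10). The 51 genes around it had medians of −0.69 and −0.60. TYMP, thymidine phosphorylase, fell on depletion at 16 h by 2.10 ± 0.31 (adjusted p = 1.77e-05), where such a median was −0.61. At 0 h its difference was −0.84 ± 0.31 (adjusted p = 0.0303), short of 2-fold. COL18A1 and TYMP both lie near a chromosome end and off the centre of these 51 genes. ESM1, like EDN1, was lowest in untreated control cells and highest in TNF-treated depleted cells. Of all genes tested, depletion gave higher calls to 5.89% at 0 h and 5.03% at 16 h, and lower calls to 9.55% and 10.2%. TNF-α gave higher calls to 2.97% in control and 1.86% in depleted cells, and lower calls to 4.27% in control cells.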

How the data were processed

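Poly(A) mRNA of 4 groups of SW480 cells was sequenced in strand-specific libraries with 50-base single-end reads, which the authors mapped with STAR and counted on RefSeq exons with HOMER. As deposited by the authors, the signal values are these reads times 1 factor per library, and division by it gave whole reads for 100% of values (tolerance 0.1). The table gives hg19 coordinates, whereas the labels name hg38. Fold changes and p-values of the authors' own comparisons, made with edgeR, were not used. The ChIP-seq and GRO-seq samples of the series were not analysed here.

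Log2(value + 1) was fitted with limma 3.58.1 in R 4.3.3 (4 group means, 8 libraries, trend), for the 14800 genes whose mean reached 2.5. Contrasts were made for depletion at each time, TNF-α in each line, and their interaction, called at an adjusted p under 0.05 and, except for the interaction, 2-fold. Replicate libraries differed beyond their sampling noise (chi-square per gene 2.08 to 3.93). The p-values of limma measure only the spread between the 2 cultures of a group, pooled over the 4 groups and moderated over all tested genes. Intervals and the limit of 3 reads cover counting error only. Genes and lists were chosen with earlier results of these data known. All ligand genes, other ligands and receptors were named, up to 4 called genes of each further list by size of change, called markers, and the 2 nearest profiles of each ligand. The level of the targeted gene and 1 nearest profile of PDGFC are not reported here. Beyond these, NDRG1, some uncalled genes of the processing, hypoxia and marker lists, and genes without a read were also named. FURIN was plotted in addition after its values were seen. Alternatives were median-ratio scaling, a minimum mean of 10 or none, 0.1 or 5 as the pseudocount, a replicate block, edgeR 4.0.16 and DESeq2 1.42.0 on the recovered reads, removal of the median of 51 neighbouring genes, and leaving out each library. The limma procedure was tested on simulated data. Tables used Python 3.11.15, pandas 2.3.3 and scipy 1.17.1.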

Additional observations from a re-analysis of the deposited data

Results flagged for a closer look

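The response to TNF-α was called different between mutp53-depleted and control cells, by the interaction term in limma, for 6 of the genes named above. Of all 14800 genes tested, 0.655% were called higher by this term and 2.21% lower. For EDN3 the difference on the log2 scale was 4.31 ± 0.79 (SE), from −4.31 in control cells and 0.00 in depleted cells, where it had no read to lose. It was −2.81 ± 0.58 for PDGFRB, from −0.15 in control cells and −2.96 in depleted cells. NRP2 differed by −0.95 ± 0.16, from 0.10 to −0.85. ECE1 differed by −0.62 ± 0.13 and PLAT by −2.05 ± 0.32, and both were higher after TNF-α in either line. The call of EDN3 was lost with edgeR, DESeq2 or a pseudocount of 0.1 and without control 0 h replicate A. That of PDGFRB was lost without either library of untreated depleted cells. That of ECE1 was lost without control 0 h replicate A, depleted 0 h replicate A or depleted 16 h replicate B. APLN differed by 0.94 ± 0.23, from −1.59 to −0.65, and this call was lost when any 1 of the 8 libraries was left out (0.86 to 1.01), with DESeq2 (adjusted p = 0.119) and with no filter on low values (0.0621).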

How the results depend on the processing

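Of 249 counts of calls recomputed under the alternatives, 229 stayed within 1.5 times the reported count, and of 664 values of single ligand genes 639 kept their direction and side of the threshold, 17 lost a call, 8 gained one and none reversed. The number of ligand genes called for TNF-α in depleted cells was 1 with no filter instead of 2. For the interaction it was 0 instead of 1 with a pseudocount of 0.1, 0 with edgeR and 0 with DESeq2. There 4, 3 and 3 of the 8 had an unadjusted p under 0.05, beside 1931, 1977 and 1150 of all 14800 genes. DESeq2 called 3 listed genes for the interaction instead of 5 and gave PDGFRB no adjusted p. Leaving out 1 library gave between 229 and 411 genes called for the interaction instead of 424, 2 to 5 listed genes, 0 to 2 ligand genes, and 1 to 3 ligand genes for TNF-α in depleted cells. A left-out library leaves its group with 1 sample, which is assumed to vary like the others. Libraries with the same letter, A or B, did not deviate together (correlations of −0.02 to 0.07), and a replicate block moved the interaction count to 559 and left the ligand genes called at 5, 4, 3, 2 and 1. The causes were not tested. EDN1, EDN2, EDN3 and PDGFC rest on few reads, and depth limits what can be said of them. In TNF-treated depleted cells, EDN2 rests on 14 reads and PDGFC on 26.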
